A study of Mus musculus with 2 samples.

Results

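The genes described are 31 enzymes and regulators of cholesterol and fatty acid synthesis, read by their ribosome footprints in the brain of the newborn mouse. They were taken as a list of gene symbols and matched to the symbols in the deposited transcript names. All 31 were found among the 45578 genes of the table, with 145 annotated transcripts in all. The list holds 7 enzymes from acetyl-CoA to farnesyl pyrophosphate, 11 from squalene to cholesterol, 4 regulators and 9 enzymes of fatty acid synthesis. All 31 passed the minimum of a mean count of 10 footprints, as did 16427 genes of the table.

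Footprints were counted in polysomes from whole brains of 2 control mice at postnatal day 5, which formed 1 group (n = 2). Both animals carried a single working copy of Smn (Smn+/-) together with the human transgene SMN2tg/0, on the FVB background. They are the labelled controls from a mouse model of spinal muscular atrophy rather than wild-type mice, and no group without these alleles is compared here. Polysomes were separated on a sucrose gradient, RNase I left the stretches of RNA that ribosomes shield, and fragments of 25 to 35 nucleotides were selected. The table held 1866831 footprints in replicate 1 and 5261878 in replicate 2, so values of replicate 1 carry the larger counting error. A count reflects how many ribosomes sat on a gene's transcripts. RNA levels were not analysed here, so no value is a translational efficiency, and in whole brain fewer cells of a type and less RNA per cell cannot be told apart.

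Cholesterol is built from acetyl-CoA in the cytosol and the endoplasmic reticulum, first as mevalonate and isoprenoid units, then as squalene, then through a series of sterols. The brain makes nearly all of its own cholesterol, because lipoproteins of the blood do not cross the blood-brain barrier, and demand is high while membranes grow and myelin begins to form. Fatty acids start from the same cytosolic acetyl-CoA, and desaturases and elongases then shape the chains for membrane lipids. The genes of both routes are classical targets of the SREBP transcription factors, which SCAP escorts out of the endoplasmic reticulum and INSIG proteins hold there when sterols are plentiful.

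SREBPs are known to bind sterol regulatory elements near the start of their targets, beside a CCAAT box that binds NF-Y. The letters TCACNCCA, the core of the element, were searched on both strands from 250 bases before to 50 bases after each RefSeq start site. A promoter of this table (RefSeq, GRCm38.p6) matched 25 of the 31 genes, and 3 of them held the core: Hmgcs1, Msmo1 and Srebf2. Among the 27025 genes of the table with a promoter, 4.97% held it. The 3 windows are shown because they are the only promoters of the list with the core in this range. Each runs 5′ to 3′ on the gene's strand, with capitals for the core and for each CCAAT, which reads ATTGG where it lies on the other strand.
Hmgcs1 (chr13:119690199-119690313, plus strand): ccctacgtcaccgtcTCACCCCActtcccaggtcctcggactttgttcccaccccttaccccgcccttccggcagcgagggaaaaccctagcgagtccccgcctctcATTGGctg
Msmo1 (chr8:64733656-64733770, minus strand): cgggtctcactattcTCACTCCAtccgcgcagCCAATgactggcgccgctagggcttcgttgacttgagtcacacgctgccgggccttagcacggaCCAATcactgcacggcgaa
Srebf2 (chr15:82147092-82147206, plus strand): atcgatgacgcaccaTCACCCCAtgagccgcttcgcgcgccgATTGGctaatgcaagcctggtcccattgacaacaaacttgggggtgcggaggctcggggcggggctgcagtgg

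The core began at -137 in Hmgcs1, -177 in Msmo1 and -162 in Srebf2, counting the annotated start as 0. The nearest CCAAT after the core began at -160 in Msmo1, -135 in Srebf2 and -45 in Hmgcs1. Hmgcs1 also had CCAAT before the core, beginning at -176 and -237 and outside the window shown. CCAAT on either strand lay in 20 of the 25 promoters, against 41.1% of all genes with a promoter. The GC box GGGCGG on either strand also lay in 20 of the 25, against 38.2%. A match of letters is a description of the reference sequence and not a measured binding site, and genes without the core in this window can hold other elements.

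Levels between genes are given as footprint density, the footprints per kilobase of coding sequence per 1000000 footprints of the library. The coding length is that of the coding transcript with the most footprints, and all transcripts of a gene are summed. Over the 13317 coding genes that passed the minimum of 10, the median density was 23.9, and the upper quartile began at 61.8. Of the 31 genes, 29 lay above that median, where 50% of coding genes lie by construction, 23 lay above the upper quartile and 6 in the top 10%. The median density was 111 for the 18 cholesterol enzymes, with replicate medians of 96.0 and 118. It was 121 for the 9 fatty acid enzymes, with replicate medians of 115 and 108, and 54.3 for the 4 regulators. All 18 cholesterol enzymes, 8 of 9 fatty acid enzymes and 3 of 4 regulators were above the coding median, and Scap and Acaca were the exceptions. Together the 31 genes took 0.598% of the footprints of replicate 1 (95% Clopper-Pearson interval 0.587 to 0.610) and 0.538% of replicate 2 (0.531 to 0.544).

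**Figure D1:**
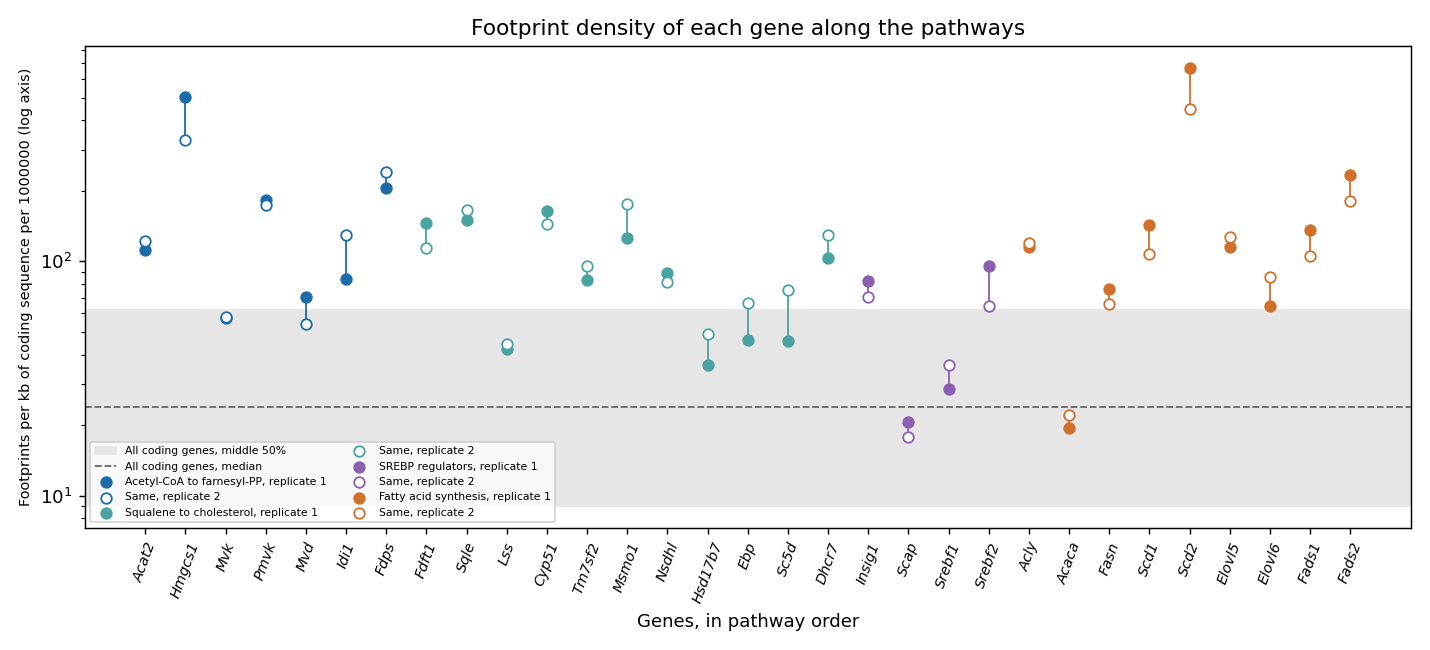
Footprint density (log axis, footprints per kilobase of coding sequence per 1000000) of the 31 genes in pathway order, with a filled point for replicate 1, an open point for replicate 2 and a line joining them. The dashed line is the median of all coding genes at 23.9 and the grey band their middle 50%; Scd2 and Hmgcs1 stand highest, and Scap and Acaca alone lie below the line.

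In the first segment of the pathway Hmgcs1 stood well above its neighbours. Acat2, the cytosolic thiolase that joins acetyl-CoA units, had 249 and 764 footprints in replicates 1 and 2, or densities of 112 and 122 (117 ± 7.0, mean ± SD, n = 2). Hmgcs1 (ENSMUSG00000093930), the cytosolic HMG-CoA synthase, had 1463 and 2713 footprints and densities of 501 and 330 (416 ± 121). Replicate 1 was the higher for Hmgcs1, yet both of its values exceeded both values of every other cholesterol enzyme. Its density was at percentile 97.8 of coding genes.

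The kinases and the decarboxylase that follow were uneven. Mvk, mevalonate kinase, had 131 and 374 footprints and densities of 57.3 and 58.1 (57.7 ± 0.52). Pmvk, phosphomevalonate kinase, had 198 and 530 footprints on a short coding sequence of 579 nucleotides, and densities of 183 and 174 (179 ± 6.52). Mvd, the decarboxylase that yields isopentenyl pyrophosphate, had 158 and 342 footprints and densities of 70.2 and 53.9 (62.0 ± 11.5). For Mvk and Pmvk the replicates lay close together, and the Pmvk values were above those of Mvk and Mvd in both.

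Idi1, which isomerises the first isoprenoid unit, had 134 and 578 footprints and densities of 84.2 and 129 (107 ± 31.6). Here replicate 2 was the higher. Fdps, farnesyl pyrophosphate synthase at the branch to sterols, dolichol and prenylated proteins, had 408 and 1340 footprints and densities of 206 and 240 (223 ± 24.0), the second highest of the cholesterol enzymes. Hmgcs1 took 27.9% of the footprints of the 18 cholesterol enzymes in replicate 1 (95% interval 26.7 to 29.1) and 19.0% in replicate 2 (18.4 to 19.7), the largest share of any of them in each.

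The enzymes that make squalene and lanosterol had densities of similar size, apart from Lss. Fdft1, squalene synthase, had 339 and 749 footprints and densities of 145 and 114 (129 ± 22.2). Sqle, squalene epoxidase, had 483 and 1502 footprints and densities of 151 and 166 (158 ± 11). Lss, the cyclase that forms lanosterol, had 174 and 512 footprints and densities of 42.3 and 44.2 (43.3 ± 1.32). The Sqle values were thus 3.56 and 3.76 times those of Lss in replicates 1 and 2. Cyp51, which removes a methyl group from lanosterol, had 461 and 1145 footprints and densities of 163 and 144 (154 ± 13.7), again above Lss in both replicates.

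The later sterol steps mostly lay lower, with Msmo1 and Dhcr7 the highest of them when all transcripts were summed. Tm7sf2, a sterol reductase, had 187 and 606 footprints and densities of 83.5 and 96.0 (89.7 ± 8.84). Msmo1, the sterol methyl oxidase, had 207 and 818 footprints and densities of 126 and 176 (151 ± 35.7). Nsdhl, the dehydrogenase that decarboxylates the oxidised sterol, had 181 and 468 footprints and densities of 89.0 and 81.7 (85.4 ± 5.20). Among these 3, replicate 2 was higher for Tm7sf2 and Msmo1 and lower for Nsdhl.

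Hsd17b7, a keto-sterol reductase, had 68 and 258 footprints and densities of 36.2 and 48.8 (42.5 ± 8.87). Its mean was the lowest of the cholesterol enzymes, although Lss was lower in replicate 2. Ebp, the sterol isomerase, had 60 and 242 footprints and densities of 46.4 and 66.4 (56.4 ± 14.1). Sc5d, the sterol desaturase that follows, had 77 and 358 footprints and densities of 45.8 and 75.6 (60.7 ± 21.1). These 3 enzymes had the fewest footprints of the list in replicate 1, and all were higher in replicate 2. Dhcr7, the dehydrocholesterol reductase whose loss causes Smith-Lemli-Opitz syndrome, had 272 and 963 footprints and densities of 103 and 129 (116 ± 18.6), above Sc5d in each replicate.

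Taken in pathway order, the density changed by as much as 7.05-fold from an enzyme to the next listed one, which was the fall from Hmgcs1 to Mvk. The rise from Acat2 to Hmgcs1 was 3.49-fold, the fall from Sqle to Lss 3.66-fold and the rise from Lss to Cyp51 3.54-fold. Of 17 such steps in the cholesterol route, 16 went the same way in both replicates, and the exception was the step from Ebp to Sc5d. In the cholesterol route the mean densities spanned 9.78-fold, from Hsd17b7 to Hmgcs1. The low end depended on the transcripts counted. With coding transcripts alone, described below, Lss was the lowest at 17.9, Hsd17b7 was at 42.8 and Hmgcs1 at 549. The range and the steps on either side of Lss were then wider.

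Among the regulators, Srebf2 exceeded Srebf1 and Scap was the lowest. Srebf2, the SREBP gene best known for cholesterol synthesis, had 604 and 1155 footprints and densities of 95.4 and 64.7 (80.0 ± 21.7). Srebf1, best known for fatty acid synthesis, had 172 and 615 footprints and densities of 28.5 and 36.2 (32.4 ± 5.42). The Srebf2 density was 3.34 times that of Srebf1 in replicate 1 and 1.79 times in replicate 2, so the direction was shared and the size was not. Insig1, an endoplasmic reticulum anchor, had 120 and 288 footprints and densities of 82.4 and 70.2 (76.3 ± 8.65). Scap, the sterol-sensing escort, had 148 and 360 footprints over 3831 coding nucleotides and densities of 20.7 and 17.9 (19.3 ± 2.00), at percentile 44.1 of coding genes. Insig1 was 3.98 and 3.93 times as dense as Scap.

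The fatty acid route began high, fell at Acaca and peaked at Scd2. Acly, which releases acetyl-CoA from citrate in the cytosol, had 711 and 2073 footprints and densities of 115 and 119 (117 ± 2.80). Acaca, the cytosolic acetyl-CoA carboxylase that makes malonyl-CoA, had 255 and 821 footprints and densities of 19.4 and 22.2 (20.8 ± 1.95). Fasn (ENSMUSG00000025153), the synthase that builds palmitate, had 1068 and 2591 footprints and densities of 76.1 and 65.5 (70.8 ± 7.50). Acaca was therefore the low point, 5.65-fold below Acly and 3.40-fold below Fasn, and its replicate values did not overlap those of either.

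Palmitate and its products are then desaturated and elongated. Scd1, a stearoyl-CoA desaturase, had 284 and 607 footprints and densities of 142 and 108 (125 ± 24.3). Scd2 (ENSMUSG00000025203), the related desaturase known as the main form of mouse brain, had 1346 and 2539 footprints and densities of 669 and 448 (559 ± 157). Both desaturases were higher in replicate 1, and Scd2 was the densest gene of the list in each replicate, at percentile 98.7 of coding genes.

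Elovl5, which elongates polyunsaturated chains, had 193 and 603 footprints and densities of 115 and 127 (121 ± 8.81). Elovl6, which elongates palmitate, had 97 and 362 footprints and densities of 64.6 and 85.6 (75.1 ± 14.8). Elovl5 was the denser in both replicates, by 1.78 and 1.49 times. Fads1 and Fads2 are the front-end desaturases that make long polyunsaturated fatty acids. Fads1 had 340 and 748 footprints and densities of 136 and 106 (121 ± 21.0), and Fads2 had 584 and 1267 footprints and densities of 234 and 180 (207 ± 38.2). Both were higher in replicate 1, while the ratio of Fads2 to Fads1 was 1.73 and 1.71, so it moved less between the replicates than either level did. All 8 successive steps of the fatty acid list went the same way in both replicates.

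Several of these genes have relatives that share their reaction, and the families differed in how unequal their genes were. Scd2 was 4.70 and 4.15 times as dense as Scd1 in replicates 1 and 2. Scd3 had 211 and 438 footprints and Scd4 had 113 and 247, with densities of 90.9 ± 19.5 and 50.6 ± 9.05. The Scd genes are close copies of each other, and how fragments that match more than 1 gene were counted is not given in the sources used here, so the split among Scd1, Scd3 and Scd4 is uncertain. The same holds for Acat2 and its near-identical neighbour Acat3, which had 126 and 400 footprints and a density of 60.1 ± 5.05.

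The other pairs are less alike in sequence. Acacb, the carboxylase of the mitochondrial surface, had 6 and 26 footprints and densities of 0.44 and 0.67, so Acaca was 44.4 and 33.0 times as dense. With so few Acacb footprints those ratios are imprecise. Insig2 had 28 and 157 footprints and densities of 22.1 and 44.0, against 82.4 and 70.2 for Insig1. Acat1, the mitochondrial thiolase, had 451 and 1067 footprints and was denser than Acat2, at 174 ± 21.5. Fads3, the third gene of its family, had 156 and 371 footprints and a density of 57.1 ± 6.84, below Fads1 and Fads2 in both replicates.

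Among the elongases, Elovl4 and Elovl5 were the densest and lay close together. Elovl4, which makes very long chains, had 217 and 649 footprints and densities of 124 and 131 (128 ± 5.35), above Elovl5 within each replicate, although the ranges overlapped. Elovl2 had 49 and 203 footprints and a density of 39.1 ± 10.5, and Elovl1 had 40 and 167 and a density of 31.6 ± 8.68. Elovl7 had 14 and 57 footprints and a density of 10.8 ± 2.79. Elovl3, an elongase of skin and brown fat, had 0 footprints in both replicates, which allows a level of up to 1.61 counts per 1000000 footprints (CPM) in replicate 1. In replicate 2 the limit was 0.570 CPM. Both limits equal 3 counts and cover counting error alone.

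**Figure D2:**
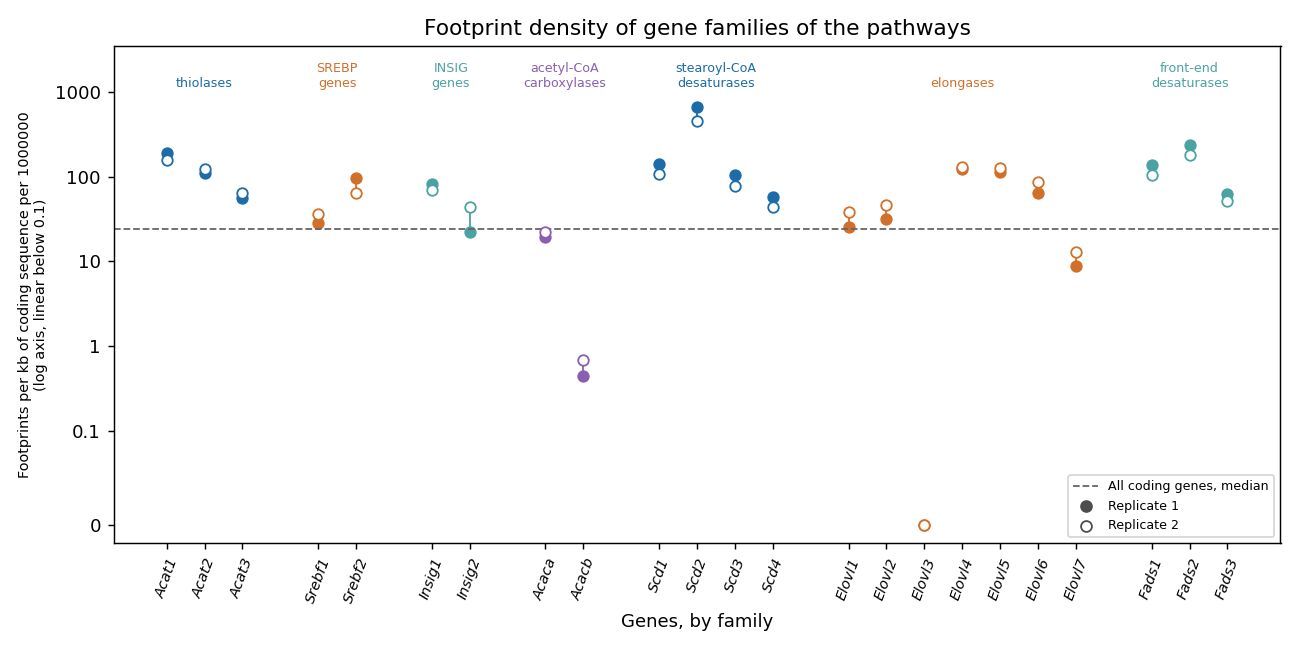
Footprint density (log axis, linear below 0.1) in replicate 1 (filled) and replicate 2 (open) for the families of the pathways, with genes outside the list of 31 shown beside the listed ones. Scd2 and Fads2 stand at the top of their families, Acaca and Acacb are the most unequal pair, and Elovl3 lies at 0; the dashed line is the median of all coding genes at 23.9.

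Ordered by mean density, the genes ran from Scd2 at 559 to Scap at 19.3. The replicate ranges overlapped for 25 of the 30 neighbouring pairs. In 6 of those 25 the order was nevertheless the same within each replicate, Scd2 above Hmgcs1 among them, and in the others the replicates gave opposite orders. The 5 gaps where they did not overlap lay between Hmgcs1 and Fdps, Pmvk and Sqle, Ebp and Lss, Hsd17b7 and Srebf1, and Srebf1 and Acaca. Across the 31 genes the densities of the replicates had a Spearman rho of 0.91, a description of these libraries. Over all 13317 coding genes it was 0.98.

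Coding length separates the level per kilobase from the number of ribosomes. Coding sequences ran from 579 nucleotides in Pmvk to 7515 in Fasn, with a median of 1206, against 1392 for all coding genes. Fasn lay at percentile 78.2 of coding genes by density but at percentile 98.8 by CPM, with 572 and 492 CPM. Acaca lay at percentile 46.0 by density and 88.5 by CPM, and its coding length was 7038 nucleotides. Pmvk went the other way, at percentile 91.6 by density and 82.1 by CPM. Spearman's rho with coding length across the 31 genes was -0.19 for density and 0.55 for CPM. Over all coding genes the values were -0.45 and 0.06. These correlations are descriptions across genes that share the same libraries, and density has length in its denominator.

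**Figure D3:**
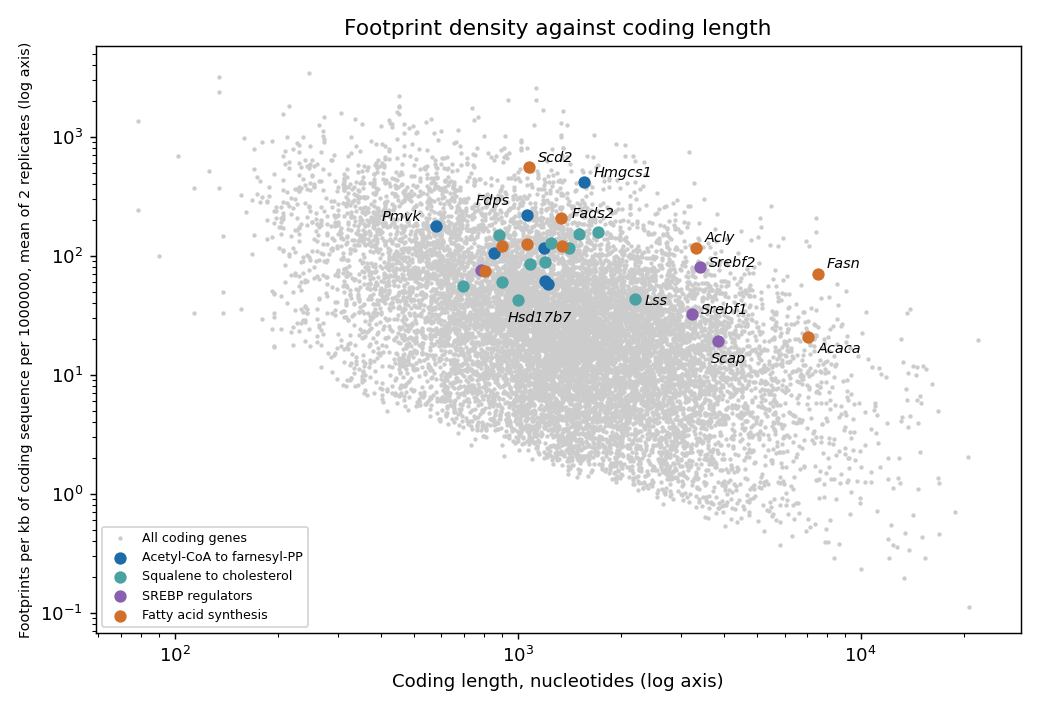
Mean footprint density of the 2 replicates against coding length (both axes logarithmic) for 13317 coding genes in grey and the 31 genes in colour by segment. Fasn and Acaca are the longest coding sequences of the list, Scd2 and Hmgcs1 the densest genes.

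Not all footprints of these genes were counted on coding transcripts. The 145 transcripts comprised 87 coding transcripts, 32 with a retained intron, 25 processed transcripts and 1 target of nonsense-mediated decay. Coding transcripts held a median of 87.3% of a gene's footprints, and all of them in 11 of the 31 genes. Lss was the lowest, with 32.2% and 30.5% on coding transcripts and 64.4% and 64.6% on transcripts with a retained intron. Msmo1 followed with 45.9% and 43.3% on coding transcripts. Ebp had 40.0% and 40.9% on transcripts with a retained intron, Sqle 33.1% and 32.6%, and Cyp51 27.5% and 27.2%. The replicates thus gave nearly the same shares for each of these genes. Transcripts of a gene share exons, and the way footprints were divided among them is not given in the sources used here, so these shares do not show translation of introns.

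With coding transcripts alone, scaled to the sum of footprints on coding transcripts, Lss had a density of 17.9 ± 0.11 and Scap 23.8 ± 2.83. Both lay below the median of all coding genes on that scale, which was 25.8, so Lss changed sides of the median. Acaca, at 26.0 ± 2.92, then lay just above it. Msmo1 was at 88.8 ± 18.7 on the same scale, with a mean below those of Nsdhl (98.7 ± 8.15) and Dhcr7 (127 ± 19.7). For Msmo1 and Nsdhl the replicates gave opposite orders. Scd2 was at 738 ± 197.

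**Figure D4:**
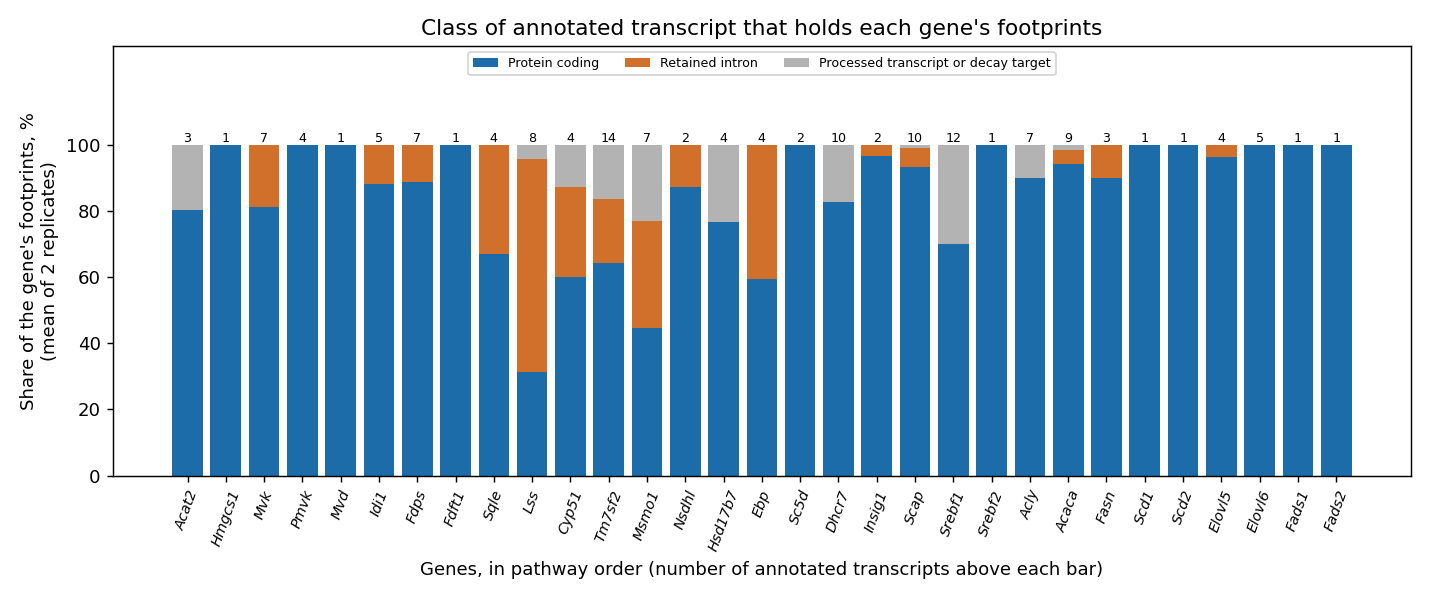
Share of each gene's footprints (percent, mean of 2 replicates) on coding transcripts, transcripts with a retained intron, and processed transcripts or decay targets, in pathway order. The number above each bar counts the annotated transcripts; Lss and Msmo1 have the smallest coding shares, and the genes with 1 transcript are coding only.

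The 2 libraries were compared gene by gene to see how far a level held between them. Each animal gave 1 library, so differences between animals and between library preparations cannot be told apart. The test was a two-sided exact binomial test of the counts against the effective library sizes, with Benjamini-Hochberg adjustment over 16427 genes. It compares 2 libraries and covers counting noise alone. By this test 13 of the 31 genes were called at an adjusted p of 0.05, against 17.4% of all genes tested. Of the 13, 3 were higher in replicate 2, against 5.95% of all genes, and 10 were lower, against 11.5%. Those shares of all genes are not matched in level to the list, of which 23 genes lay above the upper quartile of density. With a mean count of at least 50, the same 13 were called, against 26.5% of the genes tested. In the upper quartile of density, the share of coding genes called lower fell from 67.2% with 1 annotated transcript to 10.5% with 7 or more. The shares called higher in these 2 classes were 1.1% and 21.3%. At an unadjusted p of 0.05, 17 of the 31 were called. The sizes were modest, with no gene reaching a 2-fold difference, and the median log2 ratio (replicate 2 over replicate 1) was -0.08 for the 31 genes and 0.01 for all genes tested.

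Hmgcs1, Scd2 and Srebf2 led the genes that were lower in replicate 2. Hmgcs1 had a log2 ratio of -0.73 (exact binomial test, adjusted p = 2.52e-49), Scd2 of -0.70 (1.13e-42) and Srebf2 of -0.68 (4.03e-18). Scd1 was at -0.52, Mvd at -0.50, Fads2 at -0.50, Fads1 at -0.48 and Fdft1 at -0.48. Fasn at -0.34 and Cyp51 at -0.31 completed the 10. The genes higher in replicate 2 were Sc5d at 0.59 (adjusted p = 0.0074), Idi1 at 0.48 (0.00322) and Msmo1 at 0.36 (0.00948). Ebp, at 0.39, did not pass (adjusted p = 0.207).

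When the general spread between the libraries was allowed for, no call was left. edgeR's exact test with a common dispersion estimated from the same 2 libraries called 0 of the 31 genes and 11 genes in all. At an unadjusted p of 0.05 it gave 2 of the 31, Hmgcs1 and Scd2, and 4.38% of all genes tested. The folds were nearly the same in both tests, which start from the same counts and library sizes. The calls of the binomial test mark differences larger than the counting noise it assumes, with each footprint taken as independent. With 2 libraries the spread between them is itself estimated from these differences.

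The ratio between the libraries moved with the number of transcripts annotated for a gene. Coding genes with 1 annotated transcript had a median log2 ratio of -0.28, and 25.6% of these 3412 genes were called lower in replicate 2. Among the 786 of them in the top 25% of density, the median was -0.51 and 67.2% were called lower. The list holds 8 such genes: Hmgcs1, Mvd, Fdft1, Srebf2, Scd1, Scd2, Fads1 and Fads2. All 8 were called lower, with a median of -0.51. Coding genes with 7 or more transcripts had a median of 0.18, and the 931 of them in the top 25% of density had 0.07. The 10 of the list with 7 or more, from Mvk to Acaca, had a median of 0.07, and not all of them lie in that top 25%. Of these 10 only Msmo1 was called, higher in replicate 2. Of all coding genes with 7 or more transcripts, 17.3% were called higher and 3.84% lower. In the top 25% of density these shares were 21.3% and 10.5%. The parts of transcript number and density in the calls were not tested beyond the alternatives given at the end. Removing the trend in density within classes of transcript number moved Hmgcs1 from -0.73 to -0.18 and Scd2 from -0.70 to -0.30. It moved Srebf2 from -0.68 to -0.49, Scd1 from -0.52 to -0.39 and Fads1 from -0.48 to -0.32. These 5 were called lower. Mvd, at -0.35, and Fdft1, at -0.26, were no longer called, and Fads2 was at 0.04. Without the classes, removing the trend in density over all genes gave Hmgcs1 -0.18, Scd2 -0.30, Scd1 -0.39 and Fads2 0.04, nearly the same values. Srebf2 was then at -0.45, Fads1 at -0.27, Mvd at -0.32 and Fdft1 at -0.22, and Mvd and Fdft1 were again not called. The call of Msmo1 was lost within classes, at 0.28 (exact binomial test, adjusted p = 0.0919), and kept over all genes, at 0.42 (0.00333). With coding transcripts alone and no trend removed, Msmo1 was not called either, at 0.30 (0.223).

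**Figure D5:**
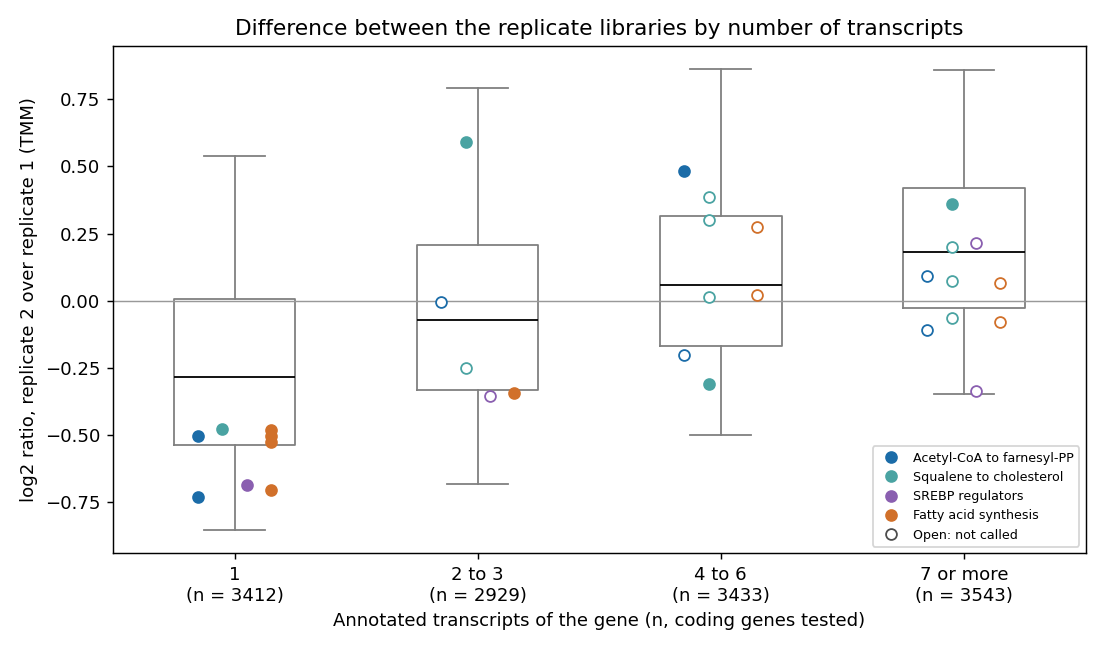
Log2 ratio of replicate 2 over replicate 1 (TMM scaling) by number of annotated transcripts, with boxes for all coding genes tested (median, quartiles, whiskers from the 5th to the 95th percentile) and points for the 31 genes, filled where called. The 8 genes with 1 transcript all lie below 0 and are called, and the boxes rise from a median of -0.28 to 0.18.

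Cell type markers moved between the libraries as well. Of 12 oligodendrocyte markers 6 were higher and 3 lower in replicate 2, with a median log2 ratio of 0.47 and summed shares of 0.105% and 0.131% of footprints. Their densities had a median of 57.8, from Myrf at 5.92 to Mbp, a major myelin protein, at 426 ± 168. Of 12 neuron markers 1 was higher and 8 lower, with a median of -0.47 and summed shares of 0.750% and 0.595%. Of 12 astrocyte markers 3 were lower and none higher, with shares of 0.338% and 0.339%. Over all genes tested, 5.95% were called higher and 11.5% lower. The 3 lower oligodendrocyte markers, Sox10, Olig1 and Olig2, each had 1 annotated transcript, and the 6 higher ones had from 3 (Ugt8a) to 16 (Mbp). Elavl4, the 1 higher neuron marker, had 12, and the 8 lower ones had from 1 (Tubb3) to 6 (Syt1). The part of transcript number in the marker differences was not tested, nor was the part of the markers in the differences of the 31 genes. By density the neuron markers had a median of 340 and the astrocyte markers of 166, and every marker of both lists lay above the coding median. Markers of microglia (median 30.6), endothelium (11.1), meninges (56.0) and oligodendrocyte precursors (55.8) were also present. Of the 4 precursor markers 0 were called higher and 2 lower in replicate 2, with a median log2 ratio of -0.48. For microglia 1 of 8 was higher and 2 lower, for meninges 1 of 4 and 2, and for endothelium 0 of 6 and 1.

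Genes around the pathways had lower densities than the synthesis enzymes as lists, by description and without a test. Calls in these lists stand beside 5.95% of all genes tested called higher and 11.5% called lower. The 12 genes of acetyl and acyl supply had a median of 36.6, with 3 higher and 0 lower in replicate 2 by the exact binomial test, and the densest was Slc25a1, the mitochondrial citrate carrier, at 126 ± 0.82. Of 16 other elongases, desaturases and elongation cycle enzymes, 14 were tested, with a median of 53.8, 0 higher and 4 lower. Tecr, the reductase that closes each round of elongation, was the densest at 709 ± 117, above Scd2 in both replicates. Of 19 mevalonate and sterol neighbours, 17 were tested, with a median of 52.5, 3 higher and 2 lower. Pgrmc1, a haem-binding partner of sterol enzymes, was the densest at 382 ± 155. Pdss2, a subunit of the synthase that makes the side chain of coenzyme Q, had 20 and 142 footprints and a log2 ratio of 1.17 (exact binomial test, adjusted p = 0.00194). It was the sole called gene of these lists with at least a 2-fold ratio.

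The 12 genes of SREBP control had a median of 37.9, with 2 higher and 1 lower, led by Ufd1l at 107 ± 21.9. Of 16 genes of sterol transport and uptake, 15 were tested, with a median of 35.5, 1 higher and 3 lower, led by Npc2, a lysosomal sterol carrier, at 135 ± 16.0. The 15 genes of fatty acid oxidation, which runs against synthesis, had a median of 41.8, with 2 higher and 2 lower. Cyp46a1, the neuronal hydroxylase by which the brain disposes of cholesterol, had 132 and 310 footprints and a density of 43.1 ± 5.55. The oligodendrocyte enzyme Fa2h, which hydroxylates fatty acids of myelin lipids, had 7 and 57 footprints and a density of 6.52 ± 4.48.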

How the data were processed

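The authors deposited whole-number counts of ribosome footprints per transcript, 1 column per replicate, not normalized, with annotated transcript, coding and untranslated lengths. Per the submitters' processing notes, Trimmomatic 0.36, Bowtie2 2.2.6, SAMtools and build GRCm38.p4 were used; the annotation release, duplicates, strand and multiple matches are not given in the sources used here. Here counts were summed per gene, scaled to library totals (CPM) and divided by coding length, which enters every density. The mean ± SD covers 2 biological replicates. Intervals are 95% Clopper-Pearson, and they and the binomial p-values cover counting error only, since PCR copies are not independent molecules. Log2 ratios use TMM sizes from edgeR 4.0.16 and a prior of 0.5 CPM; TMM moved them by -0.13. With 1 group there is no contrast for edgeR's quasi-likelihood fit. The exact binomial test was tried on simulated counts that held counting noise alone, so that trial does not cover further spread between libraries. DESeq2 1.42.0 size factors, R 4.3.3 and scipy 1.17.1 served the alternatives and tests.

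The genes and lists were chosen with earlier results of these data known. Full values are given for every listed gene, ratios for called genes and the most extreme, and for related lists the densest gene, except where it is not reported here, and those called with a 2-fold ratio. The families, Cyp46a1 and Fa2h were named after their values were seen. Symbols were matched to RefSeq (GRCm38.p6); all 31 matched. Protein sequences were not used here.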

Additional observations from a re-analysis of the deposited data

How the results depend on the processing

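With the transcript of highest count in place of the sum, the median density was 87.5 for the cholesterol enzymes and 140 for the fatty acid enzymes (all coding genes 25.0). With coding transcripts alone the fatty acid median was 155 (25.8). Per kilobase of whole transcript the medians were 57.5 and 46.9 (11.4). From single replicates they were 96.0 to 118 and 108 to 115. Under the 10 alternatives for levels, 28 to 31 of the 31 genes lay above the coding median. Against 13 listed genes called between the libraries, edgeR's exact test called 0 (2 at an unadjusted p of 0.05). An alternative chosen after seeing the data, the trend with density removed within classes of transcript number, called 8, of which 7 were among the 13 and Scap was not. Removing that trend over all genes called 9, 4 higher and 5 lower, of which 8 were among the 13 and Fdps was not. Fads2 reversed under both, to 0.037 over all genes and 0.036 within classes on the log2 scale, neither called. Library totals gave 15, 6 higher and 9 lower, with Cyp51 lost and Fdps, Dhcr7 and Srebf1 added. The remaining settings gave 12 or 13. Over all genes tested, 2861 were called, against 11 by edgeR's exact test, 1445 with the transcript of highest count and 1632 with the trend removed within classes. No paired analysis was possible because the 2 samples form 1 group. The depth of replicate 1 limits genes such as Ebp, with 60 footprints there.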
